A study of Mus musculus with 6 samples.

Results

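The cells described here were tumor microglia with many transcripts of the chemokine genes Ccl2 and Ccl12 and of the lipid carrier gene Apoe. They were 950 of the 40411 cell barcodes of a single-cell RNA sequencing matrix of CD45+ cells from mouse brains with human glioma xenografts, and they were chosen by their measured counts. Counts are unique molecular identifiers (UMIs), each of which stands for 1 captured transcript. A barcode was taken if it had over 200 and at most 2500 genes, under 5% of its UMIs on mitochondrial genes and at least 2000 UMIs, with over 3% of them on the 6 genes Cst3, C1qa, C1qb, C1qc, P2ry12 and Tmem119. It also needed at least 4 UMIs of Ccl2 and 10 of Ccl12, at least 1.5% of its UMIs on Apoe, 0 UMIs of Lpl, at most 1 of Fam20c and fewer than 10 of Cd74. The limits on genes and mitochondrial UMIs were met by 38751 barcodes, and 21615 of these were microglial barcodes of at least 2000 UMIs. These cells, called members below, made up 4.40% of the microglial barcodes (exact binomial 95% interval 4.13 to 4.68%), and the other 20665 served as the reference. Microglial here means past the limit on the sum of the 6 genes. The study also described bone marrow-derived macrophages among these cells, and whether some of them passed this limit was not tested.

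U87, an established human glioma line, was implanted into the brains of female SCID mice, a strain without functional T and B cells. The labels give an age of 6 to 8 weeks for all 6 animals. In 3 of them the U87 cells expressed IL-33, and the brains were taken after 3 weeks; in the other 3 the U87 cells carried the empty vector pcDNA 3.1, and the brains were taken after 6 weeks, so that IL-33 and time cannot be told apart. CD45+ cells of the tumor-bearing hemisphere were sorted and made into 10x Chromium 3′ v2 libraries. The matrix joins 6 libraries whose barcodes end in a suffix from 1 to 6, and the sample labels tie no suffix to an animal. The number of cells per library that the study lists was not used here to match suffixes to animals. Suffixes were therefore not assigned to groups, all values are those of 1 pooled sample of both groups, and IL-33 and pcDNA cells were neither compared nor tested. Ranges over suffixes mix the difference between the groups with the spread between animals, and members and other cells drew unequal shares of their cells from each suffix. Between 9745192 and 24393841 UMIs were counted per suffix. Barcode sequences recurred between libraries, since 3890 of 29579 sequences were found in more than 1 suffix, but no sequence belonged to members in 2 suffixes. They took in 14722 barcodes, 1445 of them microglial and 35 of them members. Without these, 107 genes were called higher and 53 lower by the rule given below, and the ratio of Spp1 was 6.38 in place of 4.19.

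Microglia are the resident macrophages of the brain. In the healthy brain they carry receptors such as P2ry12 and Gpr34, with which they sense nucleotides and lipids, and in disease, tumors included, part of them lower these receptors and raise Apoe and other lipid-handling genes. CCL2, CCL7 and CCL12 bind the receptor CCR2 and attract monocytes from the blood. CCL3 and CCL4 draw monocytes and lymphocytes, CXCL10 draws T and NK cells through CXCR3, and CXCL13 draws B cells through CXCR5.

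The label was first checked against markers. Members carried microglial genes, most of them at lower levels than the other cells. P2ry12, a nucleotide receptor, had at least 1 UMI in 937 of the 950 cells and Tmem119, a membrane protein of microglia, in 912, although both belong to the 6 genes of the rule. Among genes that the rule did not use, Cx3cr1, the fractalkine receptor, stood at 1546 counts per 1000000 UMIs (CPM) against 1836 CPM in the other cells, and Sall1, a transcription factor of microglia, at 62.0 against 81.5 CPM. The list of microglial markers had 8 genes measured outside the rule, with a median ratio of 0.770 and a lowest of 0.401. Of these, Gpr34 and Selplg were called lower by the rule given below, and 1 gene was above 1. Of the 6 names in the label, Ccl2, Ccl12 and Apoe chose the cells, and Il1b, Ifitm3 and Cxcl13 did not. Il1b was found in 57.2% of members and Ifitm3 in 40.0%, but Cxcl13 in only 5.89%, or 56 cells. With every cell thinned to 2000 UMIs, Il1b was in 40.6% of members and Ifitm3 in 27.7%. Over suffixes the thinned share with Ifitm3 ran from 8.57 to 37.4% in members and from 2.60 to 13.9% in other cells. Il1b was thus found in a large part of the cells, Ifitm3 in a smaller part that varied between suffixes, and Cxcl13 in few.

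Markers of other cell types were low. Of 10 monocyte markers 1 reached 20 CPM, Fn1 at 53.3 CPM, while the monocyte receptor gene Ccr2 was at 4.33 CPM, Ly6c2 at 0.684 CPM and Chil3 at 0, and the list summed to 67.0 CPM against 32.0 CPM in the other cells. Border macrophage markers summed to 174.6 CPM against 109.0 CPM. Their most abundant gene was Stab1, at 134 against 103 CPM, and Lyve1 was at 0. Mrc1, the mannose receptor of border macrophages, was at 26.9 CPM against 3.13 CPM, all of it in 72 members, and without the cells that held it 110 genes were called higher and 55 lower by the rule given below, beside 112 and 56 with them. NK cell markers summed to 172 CPM against 107 CPM, nearly all of it Ccl5, with Klrb1c at 0. Granulocyte markers, led by S100a8, summed to 145 CPM against 301 CPM, with Ly6g, Ltf and Elane at 0. T and B cell markers summed to 246 CPM against 350 CPM, mostly Ighm, with Cd3e among the 8 at 0. Dendritic cell markers summed to 7.29 CPM against 4.85 CPM and neuronal markers to 0.456 against 0.475 CPM. Choroid plexus markers, nearly all Ttr, summed to 64.1 CPM against 237 CPM. Astrocyte markers summed to 89.8 against 118 CPM, oligodendrocyte markers to 97.6 against 103 CPM and endothelial markers to 7.98 against 12.9 CPM. At least 2 UMIs over 101 such marker genes were held by 80.4% of members and 70.9% of other cells. Among the cells without them, 186 of which were members, 100 genes were called higher and 128 lower. There the ratio was 4.45 in place of 8.75 for Fn1, 2.56 in place of 4.19 for Spp1, 1.46 in place of 0.285 for Ttr and 0.601 in place of 0.172 for H2-Aa. Fn1 and Ttr are themselves among the markers listed above, so nothing was read from their ratios here. The ratio was larger for other genes, at 16.5 in place of 7.48 for Igfbp6, 13.8 in place of 8.03 for Ccl7, 12.3 in place of 8.00 for Ifit1 and 11.3 in place of 5.79 for Lrg1.

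The share of members among microglial cells differed between the libraries, which are of both groups, so that group and animal are mixed in it. It was 3.57% in suffix 1, 1.75% in suffix 2, 1.5% in suffix 3, 6.29% in suffix 4, 8.58% in suffix 5 and 6.70% in suffix 6, with 31 cells in suffix 3 and 105 to 239 in the others. In the order of these shares, suffix 1 differed from the next lower and the next higher by more than the exact binomial intervals, and the other neighbours did not. These intervals, like all others here, cover counting error only. Since the chemokine limits are numbers of UMIs, members were also deeper cells, with a median of 4397.5 UMIs and 1635.5 genes against 3231 UMIs and 1342 genes. Their share rose from 1.06% among microglial cells of 2000 to 3000 UMIs through 3.12, 9.49 and 13.7% to 18.5% among those of at least 7000 UMIs. Depth therefore moved with membership, and beside the main values a reference weighted to the members' UMIs, in bins of 500 UMIs, is given below.

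**Figure D1:**
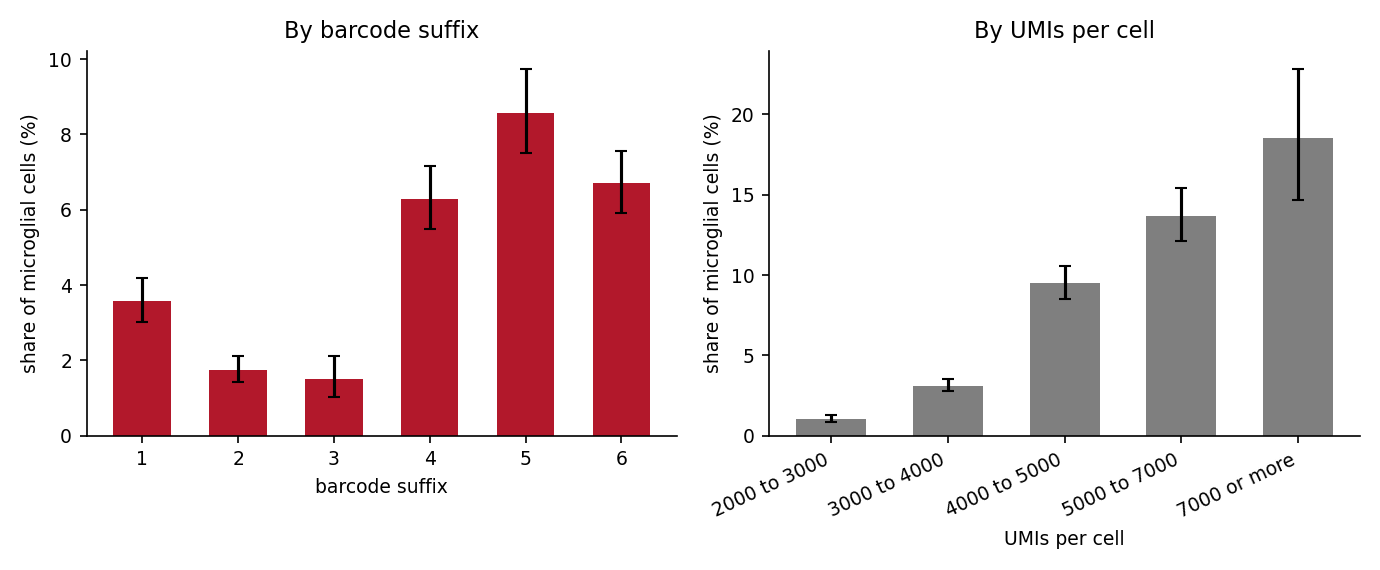
Share of Ccl2 and Ccl12 high cells among microglial cells of at least 2000 UMIs, in percent, by barcode suffix (left) and by UMIs per cell (right), with exact binomial 95% intervals as error bars. The share lay between 1.5 and 8.58% over suffixes and rose from 1.06 to 18.5% with the UMIs of a cell.

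Levels of the genes that chose the cells are a description. Ccl2 (chr11:82035571-82037453, GRCm38, plus strand) was at 2571, 3336 and 4271 CPM in the lowest, the median and the highest suffix of the members, and at 357, 736 and 989 CPM in the other cells. Ccl12 (chr11:82101845-82103400, plus strand) was at 8190, 9047 and 11418 CPM against 2780, 3183 and 3972 CPM. Apoe was at 33364, 40371 and 44850 CPM against 4319, 9231 and 16008 CPM. All 6 suffixes of the members lay above all 6 of the other cells for each of these genes, as the limits made likely. Within members the genes were graded. The median member held 12 UMIs of Ccl2 (quartiles 7 and 22, highest 101), 35 of Ccl12 (quartiles 21 and 56, highest 243) and 3.19% of its UMIs on Apoe (quartiles 2.16 and 5.11%, highest 21.1%).

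Many cells lay near the limits. If all other limits were met, 583 cells missed only the Ccl2 limit, 307 only the Ccl12 limit and 1511 only the Apoe limit. Just inside the Ccl2 limit were 72 cells, with Il1b at 488 CPM and Ifitm3 at 214 CPM, and just outside it 76 cells, with 274 and 164 CPM. At the Apoe limit, 90 cells just inside had 452 CPM of Il1b and 93 just outside had 287 CPM, while Ifitm3 was lower inside, at 207 CPM, than outside, at 350 CPM. At the Ccl12 limit the values of Il1b were 424 CPM inside and 199 CPM outside, for 24 cells each. Cells thus lay close on both sides of the Ccl2, Ccl12 and Apoe limits, which the rule itself set. Il1b was higher just inside than just outside each of them. Whether members form a separate group was not tested. A further 185 cells met every limit but that of 2500 genes.

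Ccl2 and Ccl12 lie in a row of related chemokine genes on chromosome 11. In this row Ccl2 is followed by Ccl7 (chr11:82045712-82047525), Ccl11 (chr11:82057823-82062955), Ccl12 and Ccl8 (chr11:82115185-82116799), all on the plus strand of GRCm38. Ccl11, which encodes eotaxin, had 0 UMIs, where 3 counts would be 0.684 CPM. Ccl8 was at 13.4 CPM in members and 2.45 CPM in other cells, and higher in 4 of 6 suffixes. These genes are alike in sequence, and reads that fit several of them cannot be assigned with certainty from 3′ counts. The same holds for the families of Ifi204 and Ifi207, of Slfn2 and of the H2 genes named below. Sequence upstream of the start was available for Ccl12 and for Cxcl10, which are shown since the first chose the cells and the second was the chemokine gene outside the rule whose 6 suffixes did not overlap and that was also higher than in other Apoe-high cells. Both are from RefSeq (GRCm38.p6), 250 bases ending at the base before the start, read 5′ to 3′ on the strand of the gene. Capitals mark matches to the motifs named next.

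Ccl12, chr11:82101595-82101844, plus strand: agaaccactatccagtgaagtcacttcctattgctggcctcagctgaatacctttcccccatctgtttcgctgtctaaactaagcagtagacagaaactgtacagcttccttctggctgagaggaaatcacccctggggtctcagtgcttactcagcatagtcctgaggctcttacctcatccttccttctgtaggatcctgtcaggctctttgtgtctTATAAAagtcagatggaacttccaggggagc
Cxcl10, chr5:92348890-92349139, minus strand: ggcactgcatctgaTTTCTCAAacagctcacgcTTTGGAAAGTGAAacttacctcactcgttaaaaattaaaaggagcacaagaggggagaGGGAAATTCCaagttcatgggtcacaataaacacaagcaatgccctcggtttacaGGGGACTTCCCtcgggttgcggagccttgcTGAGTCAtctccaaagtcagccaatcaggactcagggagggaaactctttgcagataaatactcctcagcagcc

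The motifs were the core of an interferon response element (GAAANNGAA), kappa B (by name), AP-1 (TGANTCA), a C/EBP-like motif (TTNNGNAA) and a TATA box (TATAAA), each searched on both strands from 250 bases before to 50 after the start. Upstream of Ccl12 only a TATA box was matched, at -31. Upstream of Cxcl10, counted from the start, the interferon response core began at -213, kappa B at -159, -104 and -103 (the last 2 overlapping) and AP-1 at -74. C/EBP-like matches began at -236 and -217, and the latter overlapped the interferon response core. Sequence was also at hand for Il1b and Cxcl13 and is not shown. Il1b had a C/EBP-like match at -91 and a TATA box at -31. Cxcl13 had C/EBP-like matches at -164 and -143 and a TATA box at -46. Neither had a match to the interferon response core, kappa B or AP-1. RefSeq promoters were at hand for 83 of the 112 genes called higher below, 96 promoters in all. The interferon response core was in 24.0% of these and in 8.56% of all 32851 promoters. The corresponding shares were 13.5 and 8.46% for kappa B, 9.38 and 7.81% for AP-1, 49.0 and 40.7% for the C/EBP-like motif, and 16.7 and 13.6% for the TATA box. These matches are a description of letters and show no binding.

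To find what members had in common beyond the rule, CPM from summed UMIs were compared for 5562 genes of at least 20 CPM in either group, without the genes of the rule and mitochondrial genes. A gene was called higher if its ratio of members to other microglial cells was at least 2 and above 1 in each of the 6 suffixes, and lower if it was at most 0.5 and below 1 in each. Since the cells were chosen on the same counts, a call is a size and not a test. There were 112 genes called higher (2.01% of those tested) and 56 called lower (1.01%), around a median ratio of 0.945. In 60 of the 112 and 44 of the 56 the suffixes of the 2 groups did not overlap, where 3.02 and 8.04% of all tested genes lay wholly above and wholly below. With the reference weighted to the members' UMIs, 76 genes were called higher (1.38% of 5512 tested) and 40 lower (0.726%), among them 76 of the 112 and 37 of the 56. When UMIs of each cell were split at random, with cells chosen on 1 part and levels taken from the other, 107 genes were called higher and 54 lower. Among the genes called higher, the 20 highest ratios, in falling order, were those of Cxcl13, Fn1, C4b, Ccl7, Ifit1, Ifi207, Igfbp6, Apoc1, Cd72, Cp, Ifi204, Emilin2, Chst2, Klrg2, Lrg1, Adora1, Cox6a2, Slc2a6, Ptger4 and Mx1. Among the genes called lower, the 15 lowest ratios, in rising order, were those of H2-Eb1, H2-Aa, Gimap6, Actn1, Sox4, Pik3ip1, Hpgd, Ttr, Il7r, Sult1a1, Csmd3, Klhdc8b, Gm31243, Gm2237 and Abcb4.

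**Figure D2:**
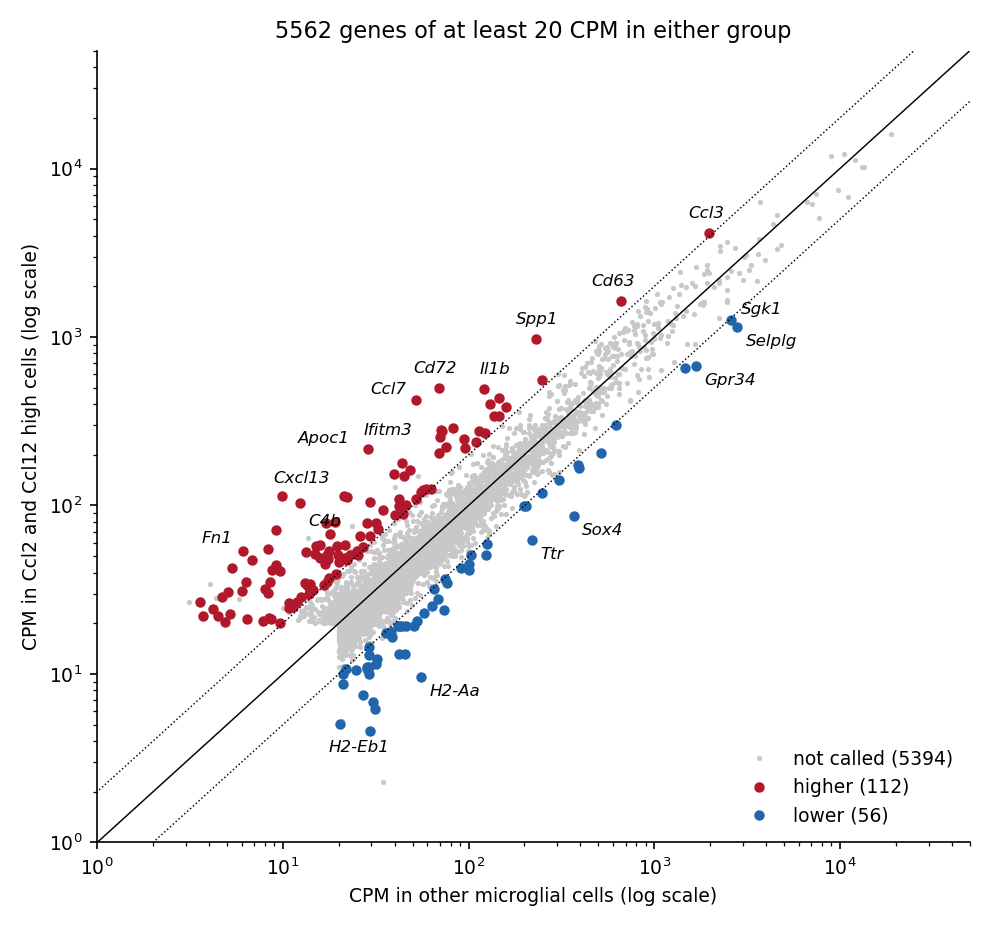
CPM of the 5562 tested genes in Ccl2 and Ccl12 high cells (vertical) against other microglial cells (horizontal), both on log scales, with called genes in red (112 higher) and blue (56 lower). The solid line marks equal levels and the dotted lines ratios of 2 and 0.5, and most genes lie between the dotted lines.

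Among ligands of the CC family, Ccl7 and Ccl3 were the 2 called higher of 6 measured outside the rule. Ccl7 was at 95.6, 362 and 537 CPM in the lowest, the median and the highest suffix of the members and at 19.5, 52.8 and 98.2 CPM in the other cells, a ratio of 8.03 (95% interval 7.59 to 8.50). Suffix 2 was the low one, and only there did a value of the members fall within the range of the other cells. Ccl7 transcripts were concentrated in part of the cells, with at least 1 UMI in 215 of 950 members and 88.3% of all its UMIs in the 95 richest cells. As a geometric mean over suffixes the ratio of Ccl7 was 6.77, below the counting interval, and weighted to depth it was 4.96. Ccl3 was at 3278, 4041 and 4821 CPM against 1429, 1993 and 2258 CPM, a ratio of 2.10 without overlap, but 1.85 and no longer called with the weighted reference. Ccl4, at 6286 against 3717 CPM, had a ratio of 1.69. Ccl5, at 149 against 53.3 CPM, was above the other cells in 4 of 6 suffixes only, and NK-like cells, which carry NK markers and under 1% of their UMIs on the 6 microglial genes, stood at 20116 CPM. Ccl6 (0.790) and Ccl9 (0.963) were near or below the level of the other cells.

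All 3 of the CXC genes called higher, of 4 measured, were ligands. Cxcl10 was at 211, 241 and 356 CPM in the lowest, the median and the highest suffix against 41.4, 59.3 and 129 CPM, a ratio of 3.95 (95% interval 3.71 to 4.21), and the suffixes did not overlap. Cxcl16, which binds CXCR6 and exists as a membrane protein, was at 202, 229 and 264 against 82.3, 113 and 131 CPM, a ratio of 2.16, also without overlap, but 1.84 and no longer called with the weighted reference. Cxcl13 had the highest ratio of all called genes with UMIs pooled over suffixes, 11.6, from 2.22, 61.9 and 218 CPM against 0.751, 11.5 and 21.4 CPM. Its groups overlapped in suffixes 1 and 2 of the members, and 1 cell alone held 150 of its 501 UMIs. Without the 5 cells with most of it in each group the ratio was 6.58, and with the weighted reference it was 4.44 and no longer called. As a geometric mean over suffixes its ratio was 6.81, below those of C4b (9.27), Igfbp6 (8.56), Lrg1 (8.53), Cd72 (7.60) and others. Cxcl2, at 129 against 40.1 CPM, was higher in 5 of 6 suffixes. Of 4 chemokine receptor genes measured none was called, and Ccr1 had the highest ratio, 1.93.

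**Figure D3:**
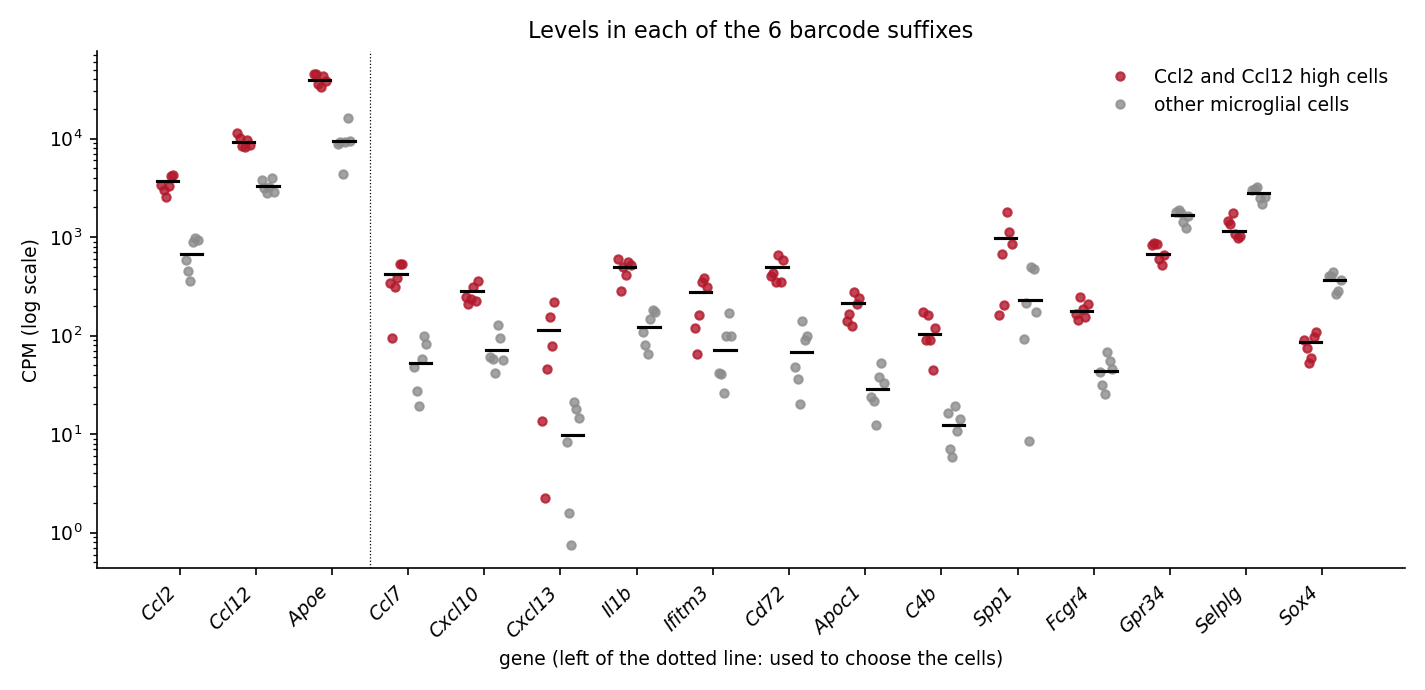
CPM on a log scale of 16 genes in each of the 6 barcode suffixes (points) for Ccl2 and Ccl12 high cells (red) and other microglial cells (gray), with the pooled CPM as black lines. Genes left of the dotted line chose the cells, and for Cxcl10, Il1b, Cd72, Apoc1, C4b, Fcgr4, Gpr34, Selplg and Sox4 the 2 sets of points do not overlap.

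Il1b, which encodes the inflammatory cytokine interleukin 1 beta, was the single gene called of 6 measured in the list of IL-1, TNF and IL-6 family cytokines. It was at 282, 511 and 596 CPM in the lowest, the median and the highest suffix of the members and at 64.7, 127 and 184 CPM in the other cells. The ratio was 4.06 (95% interval 3.87 to 4.25) without overlap, and 3.07 with the weighted reference. After every cell was thinned to 2000 UMIs, 40.6% of members held Il1b against 12.3% of other cells and 0 of 50 NK-like cells, which should lack it and in which the exact interval reaches 7.11%. Without thinning the shares were 57.2 and 17.1%, at median depths of 4397.5 UMIs in members, 3231 in other cells and 2433 in these NK-like cells. Tnf, at 409, 624 and 820 CPM against 248, 289 and 370 CPM, came to a ratio of 1.99, just under the limit for a call. Il1a, in contrast, was at 1188 against 997 CPM, a ratio of 1.19. Il33, Il10 and Lif were at 0 in members, where 3 counts would be 0.684 CPM. Il1rl1, which encodes the IL-33 receptor, had 7 UMIs in 7 of the 950 cells (1.60 CPM against 1.90 CPM), so that no difference was detectable at this depth, and none of the 7 genes listed for IL-1 and IL-33 receptors reached 20 CPM. The 16 measured targets of NF-kappa B had no call and a median ratio of 1.22, with Nfkbia, the inhibitor that NF-kappa B itself induces, at 2391 against 1977 CPM.

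Interferon-induced genes were the list with most calls. Of 21 measured, 14 were called higher and none lower, all 21 had a ratio above 1, and their median was 3.77 against 0.945 over all tested genes. With the weighted reference 11 were called. Over all tested genes 2.01% were called higher against the main reference. The lists were chosen with earlier results of these data known, so these counts are a description and not a test. Ifit1, which binds viral RNA, was at 4.45, 36.8 and 71.2 CPM against 2.13, 5.40 and 10.8 CPM (ratio 8.00, or 4.99 as a geometric mean over suffixes and 4.95 with the weighted reference). Irf7, the transcription factor that amplifies interferon production, was at 20.02, 66.4 and 112 against 9.26, 17.5 and 48.4 CPM (ratio 4.16). Isg15, a ubiquitin-like protein, was at 40.0, 154 and 177 against 26.5, 46.0 and 80.4 CPM (ratio 3.35, or 2.75 as a geometric mean over suffixes). The suffixes overlapped for each of these 3, and suffix 2 was the lowest of the members each time. Ifi27l2a (ratio 3.47), Slfn2 (3.87), Usp18 (3.77), Zbp1 (4.19), Ifi204 (6.65), Slfn5 (4.80) and Mx1 (4.93) were also called. Rsad2 (8.46), Ifit2 (5.33) and Ifit3 (4.69) had ratios as large but were not above 1 in every suffix.

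The interferon-induced genes were uneven between cells. Thinned to 2000 UMIs, the median member held 2 UMIs over the 24 genes of the list (quartiles 1 and 5, highest 47) and the median other cell 0. At least 5 UMIs were held by 247 members (26.0%) and by 5.00% of the other cells, and 21.3% of members held none. Ifitm3, a membrane protein that blocks virus entry, was at 64.5, 236 and 386 CPM against 26.2, 70.2 and 168 CPM, a ratio of 3.82 (95% interval 3.59 to 4.07) with overlap, since suffixes 1, 2 and 3 of the members lay below the highest of the other cells. Its ratio was 3.01 as a geometric mean over suffixes, below the counting interval. With the weighted reference its ratio was 2.44, and there it was higher in fewer than all suffixes and not called. It was found in 27.7% of thinned members, 6.64% of other cells and 2% of NK-like cells, and without thinning in 40.0 and 9.43% of members and other cells. Ifitm2 was at 51.7 against 14.9 CPM. MHC class I genes, which interferon also raises, had ratios above 1 in 12 of 12 genes measured but no call (median 1.08), with H2-K1 at 794 against 499 CPM and H2-D1 at 2587 against 1680 CPM.

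MHC class II genes were low against the whole reference, but the rule set a limit on Cd74, their partner, and excluded 376 microglial cells by it. These 376 cells were part of the reference and held H2-Aa at 2117 CPM and H2-Eb1 at 1156 CPM. H2-Aa (9.57 against 55.6 CPM), H2-Ab1 (50.6 against 125 CPM) and H2-Eb1 (4.56 against 29.5 CPM) were called lower of 5 measured, and nothing was read from these calls. Under the same Cd74 limit, cells that met neither the Apoe nor the chemokine limits were lower than members, at 5.02 CPM of H2-Aa and 2.33 CPM of H2-Eb1. Cells with only the Apoe limit met were higher, at 14.1 and 6.02 CPM, and those with only the chemokine limits met were at 8.95 and 3.42 CPM. In the other cells H2-Eb1 ranged from 2.88 to 89.4 CPM over suffixes. Its ratio was 0.277 without suffix 1 in place of 0.154, above Gimap6 (0.214) and Actn1 (0.232) under the same setting, so that its place as the lowest rests on that suffix.

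Among genes of lipid handling and of microglia in disease, 6 of 22 measured were called higher and none lower, with a median ratio of 1.5, and all 6 were called with the weighted reference as well. Over all tested genes 2.01% were called higher against the main reference. Apoc1, a further apolipoprotein gene, was at 124, 187 and 277 CPM in the lowest, the median and the highest suffix against 12.5, 28.2 and 52.8 CPM, a ratio of 7.45 (95% interval 6.89 to 8.05) without overlap. Spp1, which encodes osteopontin, was at 162, 756 and 1816 CPM against 8.51, 195 and 495 CPM (ratio 4.19). Its spread over suffixes was wide and the groups overlapped, with suffixes 1 and 3 of the members low. Axl, a receptor for dying cells, was at 86.7, 149 and 193 against 31.3, 50.8 and 65.9 CPM (ratio 3.37), and its ligand gene Gas6, outside the list, at 340 against 138 CPM (ratio 2.47). The calls of the list were completed by Cd63 (ratio 2.49), Cst7 (3.04) and Plin2 (2.29), which coats lipid droplets. Of the 22 genes 19 had a ratio above 1. The other 3 were Trem2 (0.945), Cd68 (0.821) and Cd9, which was at 711 against 1281 CPM (0.555). Gpnmb was at 0, and so was Lpl by the rule.

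Receptors and complement followed. Cd72, an inhibitory lectin known from B cells, was among the genes found in most members. It was at 351, 414 and 663 CPM in the lowest, the median and the highest suffix against 20.1, 68.8 and 140 CPM, a ratio of 7.23 (95% interval 6.88 to 7.61) without overlap, and 4.47 with the weighted reference. After thinning, 51.8% of members held it against 7.69% of other cells and 14% of NK-like cells, and before it 70.7% of members against 11.3% of other cells. C4b, a complement component, was at 45.1, 105 and 175 against 5.88, 12.6 and 19.1 CPM (ratio 8.39, and 4.70 with the weighted reference), again without overlap. C5ar1, the receptor for C5a, was at 205 against 69.3 CPM (ratio 2.96). Of 5 Fc receptor genes, the activating Fcgr4 was at 145, 176 and 249 against 25.3, 44.5 and 68.8 CPM (ratio 4.10) and the inhibitory Fcgr2b at 558 against 248 CPM (2.25, and 1.92 without a call with the weighted reference), while Fcgr3 (0.938) and Fcgr1 (1.28) were not called. Tlr2 was called of 9 pattern receptors (339 against 145 CPM), and Cd14 was not (1094 against 781 CPM). Ptger4, a receptor for prostaglandin E2, was at 84.1, 124 and 133 against 9.51, 21.6 and 36.7 CPM (ratio 5.05), and Hcar2, the niacin and butyrate receptor, at 206, 254 and 425 against 52.7, 70.9 and 95.6 CPM (ratio 3.65), neither with overlap. Tspo, a protein of the outer mitochondrial membrane whose ligands serve as tracers in imaging, was at 398 against 130 CPM (ratio 3.06), and in 72% of NK-like cells after thinning.

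Other lists were mixed. Of 10 growth and matrix factors, Fn1 (fibronectin, ratio 8.75, and 4.84 with the weighted reference) and Mmp14 (2.20) were called. Fn1 was found in 104 members, from 4.45 to 103 CPM over suffixes against 0.25 to 16.7 CPM. Saa3, an acute phase gene outside the rule for naming genes and singled out after its values were seen, was at 111 against 9.69 CPM in 48 members, with 0 in 1 suffix. Of thinned members 38 held Cxcl13, 35 Saa3 and 5 both, that is 13.2% of the first and 14.3% of the second, beside 3.68% with Saa3 and 4% with Cxcl13 among all members. Il1b and Ifitm3 were both in 99 thinned members, that is 25.6% of the 386 with Il1b, beside 27.7% with Ifitm3 among all members, and 37.6% of the 263 with Ifitm3, beside 40.6% with Il1b among all members. Glycolysis and hypoxia genes had no call of 14 (median 1.16), checkpoint genes none of 8 (0.827) and DNA replication genes none of 2, and no mitosis gene reached 20 CPM. Cytosolic ribosomal protein genes took 7.33% of UMIs in members and 4.86% in other cells, higher in 6 of 6 suffixes, with 79 of 80 tested genes above 1 but none called (median ratio 1.51). Mitochondrial genes took 2.03 against 1.39%, below the limit of 5% by the rule.

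**Figure D4:**
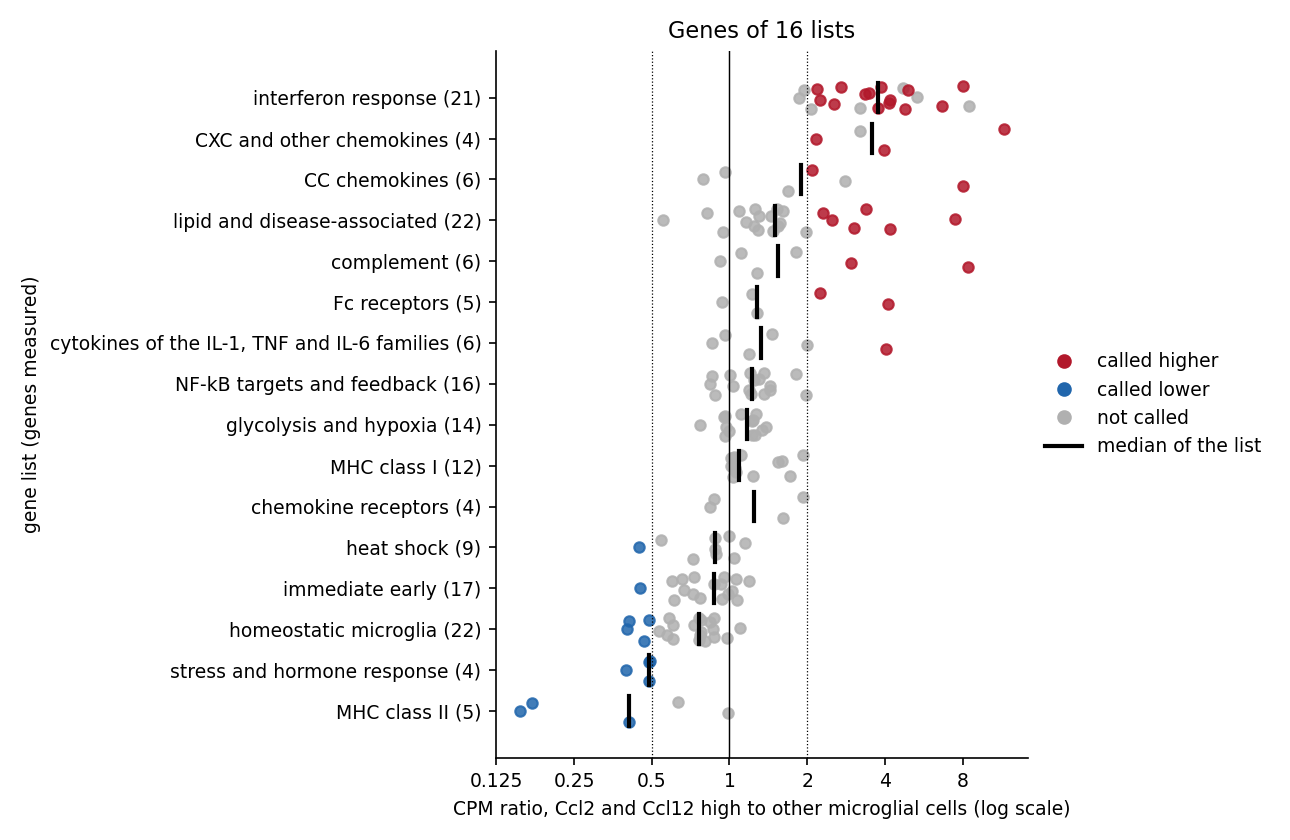
Ratio of CPM in Ccl2 and Ccl12 high cells to other microglial cells, on a log scale, for the measured genes (points) of the lists named on the vertical axis, with called genes in red or blue and the median of each list as a black bar. Interferon response genes lie wholly above 1 with a median of 3.77, and homeostatic genes mostly below 1 with a median of 0.760.

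Of 22 genes of homeostatic microglia measured outside the rule, 4 were called lower and none higher, 21 had a ratio below 1, and the median was 0.760. Over all tested genes 1.01% were called lower, and the median of 0.945 was itself below 1. Gpr34, a receptor for lysophosphatidylserine, was at 525, 742 and 872 CPM in the lowest, the median and the highest suffix of the members and at 1241, 1694 and 1887 CPM in the other cells, a ratio of 0.401 (95% interval 0.386 to 0.416). Selplg, the ligand of P-selectin, was at 981, 1206 and 1740 against 2162, 2806 and 3247 CPM (ratio 0.410). Neither overlapped. P2ry13 (0.488) and the fructose transporter gene Slc2a5 (0.466) were the other 2, and P2ry13 lost its call with the weighted reference (0.542). P2ry12, itself part of the rule, was at 1714 against 4063 CPM and Tmem119 at 1492 against 2471 CPM. Other genes of microglial identity were nearer to 1, Siglech at 0.574, Sall1 at 0.760, Csf1r at 0.860 and Olfml3 at 0.978. Fcrls (1.10) was the exception above 1.

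All 4 measured genes of stress and of glucocorticoid response were called lower, Sgk1 at 1256 against 2579 CPM (ratio 0.487), Txnip at 206 against 518 CPM (0.398), Tsc22d3 at 99.8 against 205 CPM (0.487) and Fkbp5 at 14.4 against 29.1 CPM (0.493). With the weighted reference Txnip alone was called. Over all tested genes 1.01% were called lower against the main reference. Immediate early genes, which tissue dissociation is known to raise, had 1 call of 17, Fosb at 175 against 388 CPM (0.450, and 0.513 without a call with the weighted reference), and a median of 0.867, and heat shock genes 1 of 9, Dnajb1 at 656 against 1471 CPM. Fos was at 6749 against 11081 CPM and Jun at 10271 against 13508 CPM. Sox4, a transcription factor, was at 52.3, 83.2 and 108 CPM against 265, 385 and 440 CPM (ratio 0.236) without overlap. Il7r, a cytokine receptor gene, was at 8.38, 13.2 and 18.2 against 39.1, 45.6 and 48.6 CPM (0.292), also without overlap.

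The 2 parts of the rule were then taken apart. With the same limits on Lpl, Fam20c and Cd74, 2019 cells met the Apoe limit but not the chemokine limits, 1511 met the chemokine limits but not that of Apoe, and 15166 met neither. Members were 32.0% of the Apoe-high cells (16.7 to 40.3% over suffixes), while 9.06% of cells below the Apoe limit met the chemokine limits (5.82 to 14.1%). Both groups of limits chose deeper cells, so the shares carry depth with them. The genes called were chosen against the pool of the other classes, which largely fixed that members stood at the extreme, and nothing was read from that. Of the 112 genes called higher, 109 were at their highest in members among the 4 classes. Their median ratio to the cells that met neither was 4.06 in members, 2.53 in cells with only the Apoe limit met and 2.26 in those with only the chemokine limits met. At least 2-fold levels over the cells that met neither were found for 74 of the 112 with Apoe alone, for 69 with the chemokines alone and for 59 in both of these classes. Of the 56 genes called lower, 54 were lowest in members (medians 0.376, 0.611 and 0.730). Microglial cells outside these classes were higher than members in some of the 112 genes. In the 376 cells with at least 10 UMIs of Cd74, 16 were higher, among them Isg15 (166 against 150 CPM) and Ifitm3 (286 against 276 CPM), and C4b was at 89.8 against 103 CPM. In the 225 cells with Lpl and at least 2 UMIs of Fam20c, 19 were higher, among them Spp1 (2875 against 972 CPM), Cd63 (2373 against 1642 CPM) and Axl (197 against 163 CPM).

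Genes differed in which limit they went with. Apoc1 was at 124 CPM with Apoe alone, 19.4 CPM with the chemokines alone and 7.73 CPM with neither, against 215 CPM in members. Spp1 was likewise at 692, 113 and 24.0 CPM against 972 CPM, and Fn1 at 20.03, 3.42 and 0.929 CPM against 53.3 CPM. Ifit1 went the other way, at 6.30 CPM with Apoe alone, 24.7 CPM with the chemokines alone and 1.88 CPM with neither, against 42.6 CPM. Cxcl10 (113, 179 and 41.6 CPM against 281 CPM) and Ccl7 (99.3, 188 and 21.2 CPM against 421 CPM) were of this kind. Il1b was at 255, 246 and 75.6 CPM against 492 CPM, and C4b at 45.2, 17.6 and 3.10 CPM against 103 CPM. Gpr34 was at 1014, 1209 and 1893 CPM against 668 CPM.

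**Figure D5:**
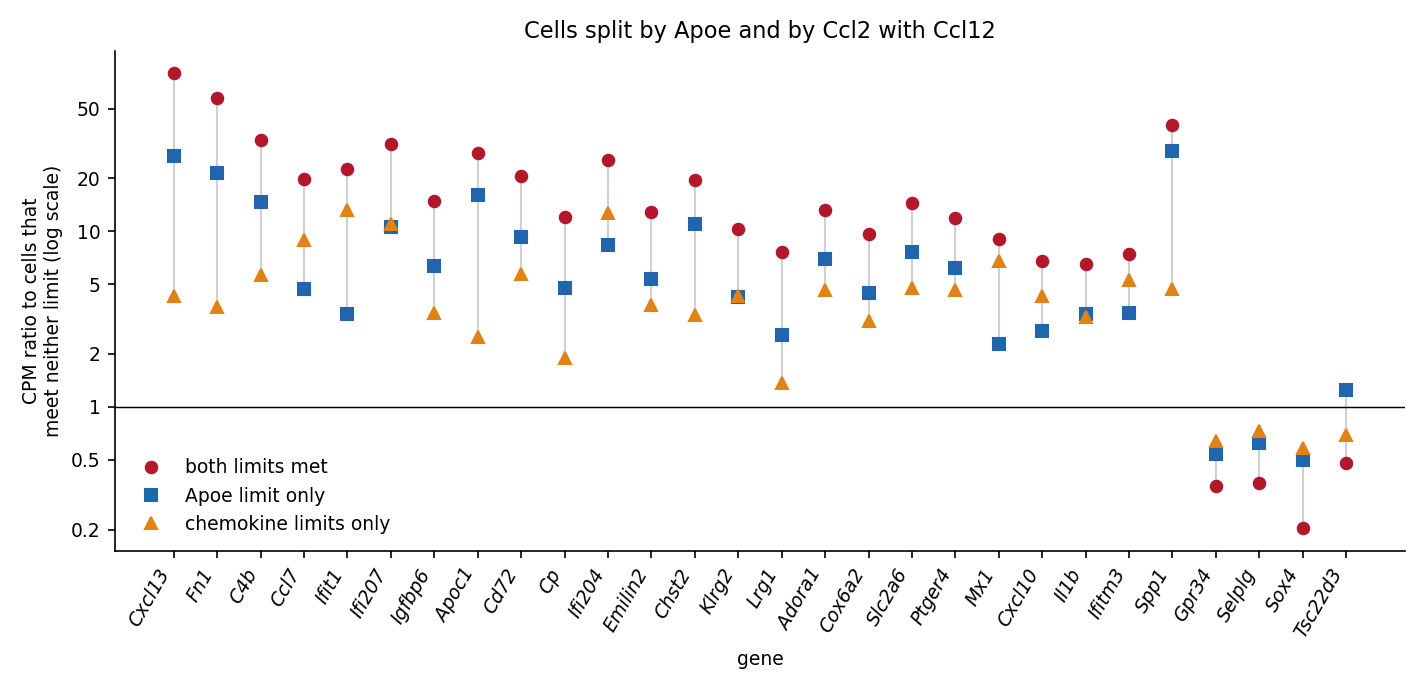
Ratio of CPM to that in cells that met neither limit, on a log scale, for the 20 called genes with the highest ratios and 8 others, in cells that met both limits (red circles), the Apoe limit only (blue squares) or the chemokine limits only (orange triangles). Red circles are highest for the genes above 1, and the triangles lie above the squares for Ifit1, Mx1, Cxcl10, Ccl7, Ifi204 and Ifitm3, among others.

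Set directly against the cells with only the Apoe limit met, members had 24 of 5459 genes called higher (0.44%) and 7 lower (0.128%). Among the genes called, the 10 highest ratios were those of Ifit1 (6.76), Ccl7 (4.24), Mx1 (3.95), Ifi204 (3.04), Isg15 (2.98), Lrg1 (2.95), Cp (2.53), Cxcl10 (2.49), Klrg2 (2.47) and Emilin2 (2.42). Ifit1, Mx1, Ifi204 and Isg15 are interferon-induced, and Cp encodes ceruloplasmin, a copper-carrying ferroxidase. The 7 lower genes, named after their values were seen, were Tsc22d3 (0.384), Ttr (0.387), Il7r (0.402), Sox4 (0.410), Jaml (0.472), Itgax (0.496) and Ap1s2 (0.4998). Tsc22d3, Ttr, Il7r and Sox4 were thus called lower against either reference.

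Among cells of like depth the ratios of the label's genes to other microglial cells varied. Il1b stood at 6.00 among cells of 2000 to 3000 UMIs, then 5.67, 3.11, 2.43 and 2.11 among those of at least 7000. Ifitm3 fell in the same order from 6.64 through 5.53, 2.73 and 1.92 to 1.57. Both remained above 1 in every class of depth. Cxcl13 did not, with 44.2, 19.3, 14.8, 0.897 and 11.4. The 112 genes called higher were also unevenly spread over cells. Of these, 17 were found in at least 50% of members, among them Il1b, Cd72, Tspo, Hcar2, Tlr2, Il4ra, Gas6, Fcgr2b, Cd63, Plin2, Cxcl16 and Ccl3, while 80 were found in 10 to 50% and 15 in under 10%. For 99 of the 112 the ratio was still at least 2 without the 5 cells with most of the gene in each group.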

How the data were processed

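The data were 6 libraries of sorted CD45+ cells, 3 for each group. The authors aligned reads to mm10 with STAR in Cell Ranger 3.1 and deposited 1 matrix of raw UMI counts for 31053 genes and 40411 barcodes of 6 aggregated libraries, not corrected for batch. The 3 sequencing batches are not given per library. No per-sample columns were left out (0 columns), and suffixes were not assigned to animals because the labels give no map. CPM, exact Poisson and exact binomial 95% intervals and ratios were computed with Python 3.11.15, numpy 2.4.6, scipy 1.17.1 and pandas 2.3.3, and figures with matplotlib 3.10.9. For ratios of 2 levels the exact conditional interval was used. Total UMIs per suffix were 9745192 to 24393841, and sums over members rest on 4386921 UMIs. The authors excluded doublets in the sort and also left out cells with over 2500 genes as doublets. Here that cap was the only further step against doublets. NK-like cells (at least 3 UMIs of NK markers, 1000 UMIs and under 1% of UMIs on the 6 microglial genes) gave the background of stray UMIs. For duplicated symbols the first entry was used. Named are the 20 genes with the highest and the 15 with the lowest ratio among genes of at least 20 CPM on 1 side of 1 in all 6 suffixes, genes of the rule and label, called and abundant genes of 38 lists, and the 10 highest against Apoe-high cells. Members, lists and names were chosen with earlier results of these data known. Coordinates are from GENCODE for GRCm38. On simulated counts for 5461 genes, 198 of them changed 3-fold, 100% of raised and 96.9% of lowered genes were called and 0% of the others. The planted changes exceeded the limit of 2-fold and the other genes were unchanged. This shows only that the rule finds such changes, and it gives no rate of false calls for the real counts. Alternatives changed the limits on UMIs, highest number of genes, mitochondrial UMIs, microglial genes, chemokines and Apoe. They also changed the filter, the fold, the reference and the cells. The limits on Lpl, Fam20c and Cd74 and the lower limit on genes were not varied. Leaving out cells with Mrc1 and the 5 highest cells per gene was added after the data were seen. Some items are not reported here.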

Additional observations from a re-analysis of the deposited data

Results flagged for a closer look

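For each named gene and for the share of members, the highest and the lowest of the 6 suffixes were compared with the nearest of the others. Of 46 values checked, 3 had a suffix whose gap to the next was past Dixon's 95% critical value, where chance gives about 1 in 20. Chst2, a sulfotransferase gene, was at 85.0 CPM in the members of suffix 3, where the next suffix was at 35.6 CPM. Pik3ip1, which restrains PI3 kinase, was highest in the same suffix, at 13.1 CPM beside 6.67 CPM. Suffix 3 held only 31 members. Adora1, an adenosine receptor gene, was at 8.20 CPM in suffix 5, beside 35.6 CPM in the next lowest.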

How the results depend on the processing

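The share of members among microglial cells, 4.40%, depends on the limits by construction. It was 3.41% with 1000 UMIs and 6.38% with 3000 UMIs as the minimum, 5.05% without the limit on genes, 3.66% with over 5% of UMIs on the microglial genes, 5.01% and 3.33% with looser and stricter chemokine limits, and 5.51% and 3.49% with Apoe limits of 1% and 2%. It was 3.00% without cells that held at least 2 UMIs of other cell type markers, which left 186 members, and 4.11% without cells with Mrc1. Leaving out each suffix gave 3.84 to 5.41%, with 112 to 122 genes called higher and 55 to 60 lower. Of genes higher in members, 112 became 68 at 50 CPM, 265 at a fold of 1.5, 50 at a fold of 3 and 24 against Apoe-high cells. Of genes lower in members, 56 became 92 at 10 CPM, 30 at 50 CPM, 663 without a filter on CPM, 233 and 11 at folds of 1.5 and 3, 7 against Apoe-high cells and 128 without cells that held other cell type markers. Of 990 ratios of 45 named genes under the alternatives, 680 lay within the counting interval of the main ratio, 309 moved past it and 1 reversed. That was Ttr, at 1.46 without cells that held other cell type markers, of which Ttr is one. Apart from the comparison with Apoe-high cells, ratios that moved by over 1.5 times and are not given beside the results were those of Cxcl13 (6.25 without the limit on genes and 4.37 with over 5% of UMIs on the microglial genes), Emilin2 (3.72) and Gimap6 (0.452) without the limit on genes, and Pik3ip1 with 1000 UMIs (0.139). With the weighted reference they were Lrg1 (2.65), Emilin2 (3.77), Ifi204 (4.23), Adora1 (3.67), Igfbp6 (4.59), H2-Eb1 (0.0843) and H2-Aa (0.0935). Without cells that held other cell type markers they were Sox4 (0.139), Gimap6 (0.130), Sult1a1 (0.120), Gm2237 (0.169) and H2-Eb1 (0.345), and as a mean over suffixes H2-Eb1 (0.239). The causes were not tested. No paired analysis was possible because the suffixes carry no replicate number of the labels by which IL-33 and pcDNA samples could be paired. Members and other cells were compared within each suffix, as the calls require. Levels under 0.684 CPM in members are below 3 counts, and genes found in few cells rest on those cells.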
